A study of Homo sapiens with 15 samples.

Results

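The imprinted 14q32 region of the human genome carries a short upstream run of miRNA genes, from MIR493 to MIR136, and its mature products were examined here in hypoxic and normoxic glioblastoma cells. Earlier results of these data were known, but the rule that chose the members used only name and place, not measured values. The members are named mature miRNAs of this run that are rows of the count files. There were 10 of them among the 1707 mature miRNAs listed, in the order of their hairpins hsa-miR-493-5p, hsa-miR-493-3p, hsa-miR-337-5p, hsa-miR-337-3p, hsa-miR-431-5p, hsa-miR-433-3p, hsa-miR-127-5p, hsa-miR-127-3p, hsa-miR-432-5p and hsa-miR-136-3p. The species prefix hsa is left out from here on. Another product of the run, miR-136-5p, is also a row of the files but is not on this list of members.

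The miRNA-Seq libraries came from U87-MG, an established human glioblastoma cell line. Control cells, labelled WT, were kept for 24 h in 21% O2 (normoxia) or in 1% O2 (hypoxia), while cells lacking HIF1α (HIF1α-KO), HIF2α (HIF2α-KO) or both (HIF1α/HIF2α-KO) were kept for 24 h in 1% O2 only. Each of the 5 groups had 3 replicates, which makes 15 libraries. The knockouts were made with CRISPR/Cas9 and sgRNAs, and whether a knockout line was a single clone is not given in the sources used here. HIF1α and HIF2α are the oxygen-regulated subunits of the transcription factors that switch on genes in hypoxia. Neither of their mRNAs was measured in this assay, so the knockouts were not checked in these libraries. Nothing in the labels says that the replicates were separate cultures, so the p-values below measure only the spread between these libraries, which may be technical. Total counts per library ranged from 10360337 to 22496373. Levels are given as counts per 1000000 counts of a library (CPM), and a floor of 3 counts, which corresponds to 0.290 CPM in the smallest library, was used as the limit of detection, with regard to counting error alone.

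On 14q32, protein-coding genes such as DLK1, RTL1 and DIO3 are expressed from the paternal chromosome, whereas a long run of noncoding RNAs, including MEG3, MEG8 and the miRNAs, is expressed from the maternal chromosome. The miRNAs form a small group near RTL1 and a large distal group further along the chromosome. Each hairpin can release a mature miRNA from its 5′ arm (5p) and from its 3′ arm (3p), and the seed, bases 2 to 8 of the mature strand, does most of the pairing with target mRNAs.

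The 7 hairpins that encode the members lay on the plus strand of chromosome 14 within 15724 bp of each other (coordinates of the GRCh38 annotation, since the count files carry names only). MIR493 was annotated at chr14:100869060-100869148 and MIR337 at chr14:100874493-100874585. MIR431 lay at chr14:100881007-100881120, MIR433 at chr14:100881886-100881978 and MIR127 at chr14:100882979-100883075. The run ended with MIR432 at chr14:100884483-100884576 and MIR136 at chr14:100884702-100884783. All 7 lay in an intron of the long noncoding RNA gene AL117190.1, which is read in the same direction. MIR431, MIR433, MIR127, MIR432 and MIR136, which are 5 of the 7, also lay inside the coding sequence of RTL1 on the opposite strand, so that their mature products are complementary to the RTL1 mRNA. RTL1 encodes a retrotransposon-derived protein that is needed in the placenta.

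The mature sequences of the 10 members (RefSeq, GRCh38.p14, all 10 matched) are shown in the order of the hairpins. They are 21 to 23 nucleotides long and were matched by name, since the count files hold no sequences. Capitals mark the seed.
miR-493-5p: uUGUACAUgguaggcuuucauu
miR-493-3p: uGAAGGUCuacugugugccagg
miR-337-5p: gAACGGCUucauacaggaguu
miR-337-3p: cUCCUAUAugaugccuuucuuc
miR-431-5p: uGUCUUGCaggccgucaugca
miR-433-3p: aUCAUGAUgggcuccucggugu
miR-127-5p: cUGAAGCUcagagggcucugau
miR-127-3p: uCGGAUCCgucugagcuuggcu
miR-432-5p: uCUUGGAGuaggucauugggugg
miR-136-3p: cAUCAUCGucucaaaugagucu
The 10 seeds all differed, and 0 other human mature miRNAs in the RefSeq table carried any of them, so no member shares its seed with a family elsewhere in the genome. The MIR127 hairpin is shown whole because most of the members' counts came from it, with the 5p arm and then the 3p arm in capitals.
MIR127: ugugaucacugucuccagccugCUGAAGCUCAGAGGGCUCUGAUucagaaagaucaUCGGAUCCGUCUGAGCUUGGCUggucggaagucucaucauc

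Of the whole group, miR-127-3p was the only member present above the floor in every library. The 10 members together had 449 counts in the 15 libraries, and miR-127-3p held 372 of them, which is 82.9% (exact 95% binomial interval 79.0 to 86.2). The other 9 members had 77 counts in all. Of their 135 library values, 87 were at 0, 46 were between 1 and 3 counts and 2 exceeded 3 counts, with a maximum of 5. Low counts of this kind were common in the files, since 875 of the 1707 miRNAs (51.3%) never exceeded 5 counts in any library.

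**Figure D1:**
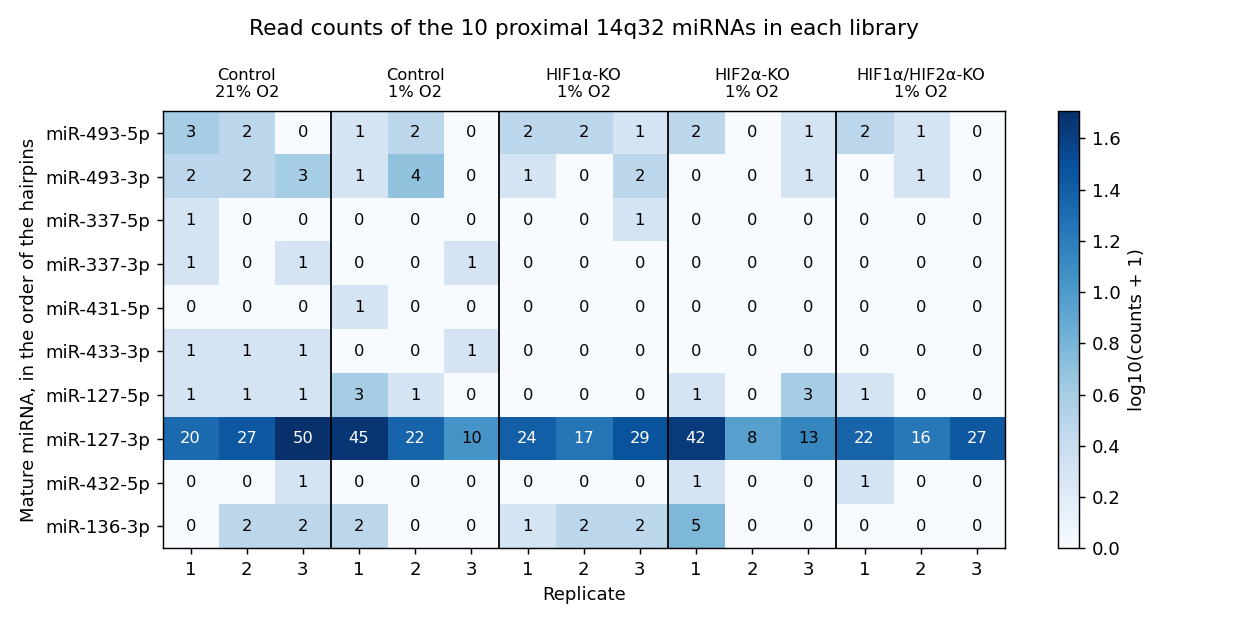
Read counts of the 10 members (rows, in the order of the hairpins) in each of the 15 libraries (columns, by group and replicate), with colour by log10(counts + 1). The miR-127-3p row holds 8 to 50 counts, while the other 9 rows stay between 0 and 5.

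miR-127-3p, the 3′ strand of MIR127, had 20, 27 and 50 counts in the normoxic control libraries (1.60, 2.07 and 3.08 CPM). In the hypoxic control libraries it had 45, 22 and 10 counts (4.24, 0.978 and 0.717 CPM). Replicate 1 of the hypoxic control was thus the highest of all 15 libraries, and replicate 3 was among the lowest. HIF1α-KO libraries had 24, 17 and 29 counts (2.08, 0.823 and 2.80 CPM), and HIF2α-KO libraries had 42, 8 and 13 counts (3.12, 0.694 and 1.11 CPM). HIF1α/HIF2α-KO libraries had 22, 16 and 27 counts (1.43, 1.32 and 2.32 CPM). The ranges of all 5 groups overlapped, and the highest library exceeded the lowest 6.11-fold, hardly more than the 5.91-fold span within the hypoxic controls alone.

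In order of the mean, miR-127-3p stood at 2.25 ± 0.752 CPM in normoxic control cells, 1.98 ± 1.96 in hypoxic control, 1.90 ± 1.00 in HIF1α-KO, 1.69 ± 0.546 in HIF1α/HIF2α-KO and 1.64 ± 1.30 in HIF2α-KO cells (mean ± SD, n = 3 each). No neighbours in this order differed by more than their SD. Replicates differed by a chi-square per degree of freedom of 28.5 in hypoxic control, 12.5 in HIF2α-KO and 9.09 in HIF1α-KO cells, well above the value near 1 that counting error alone gives, and by 3.55 in normoxic control and 2.18 in HIF1α/HIF2α-KO cells. By mean CPM over all libraries, 397 of the 1707 miRNAs (23.3%) were more abundant than miR-127-3p.

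**Figure D2:**
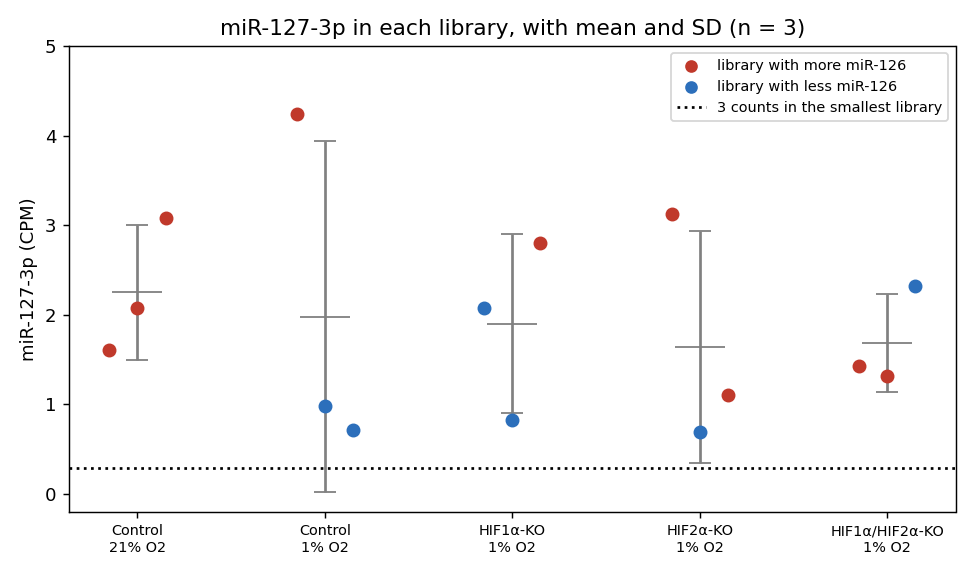
miR-127-3p in CPM (y axis) in the 3 libraries of each group (x axis), with horizontal bars for the mean and whiskers for the SD; colours give the libraries with more or less miR-126, and the dotted line marks 3 counts in the smallest library (0.290 CPM). All 15 points lie above the line, and the groups overlap.

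The 5′ strand of the same hairpin, miR-127-5p, was far rarer, with 12 counts in 8 libraries. It had 1 count in each normoxic control library, 3, 1 and 0 in hypoxic control, 0 in all 3 HIF1α-KO, 1, 0 and 3 in HIF2α-KO, and 1, 0 and 0 in HIF1α/HIF2α-KO libraries. The 5p arm thus made up 12 of the 384 counts of MIR127, or 3.12% (exact 95% binomial interval 1.62 to 5.40). By group it held 3 of 100 counts in normoxic control, 4 of 81 in hypoxic control, 0 of 70 in HIF1α-KO, 4 of 67 in HIF2α-KO and 1 of 66 in HIF1α/HIF2α-KO cells. The count of 0 in HIF1α-KO cells allows a share of up to 5.13% (exact binomial bound), above the 4.94% of the hypoxic control, so a difference was not detectable at this depth.

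The first hairpin of the run, MIR493, gave similar counts of both arms. Its 5′ strand miR-493-5p had 19 counts in 11 libraries: 3, 2 and 0 in normoxic control, 1, 2 and 0 in hypoxic control, 2, 2 and 1 in HIF1α-KO, 2, 0 and 1 in HIF2α-KO and 2, 1 and 0 in HIF1α/HIF2α-KO cells. Its 3′ strand miR-493-3p had 17 counts in 9 libraries: 2, 2 and 3, then 1, 4 and 0, then 1, 0 and 2, then 0, 0 and 1, and last 0, 1 and 0 in the same order of groups. The 5p arm held 19 of 36 counts (52.8%, exact 95% binomial interval 35.5 to 69.6), an interval that does not meet the one of MIR127. In single libraries the share of MIR493 ran from 0 to 100%, on 2 to 6 counts each.

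MIR136, the last hairpin of the run and antisense to RTL1, gave the widest swing among the rare members. Its 3′ strand miR-136-3p had 16 counts in 7 libraries. They fell as 0, 2 and 2 in normoxic control, 2, 0 and 0 in hypoxic control, 1, 2 and 2 in HIF1α-KO, 5, 0 and 0 in HIF2α-KO and 0 in all 3 HIF1α/HIF2α-KO libraries. The 5 counts of HIF2α-KO replicate 1 were the highest single value of the 9 rare members. The 5′ strand miR-136-5p, which is no member, had 4 counts in 3 libraries.

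The 4 remaining hairpins were at the limit of detection. MIR337 gave 2 counts of miR-337-5p (1 in a normoxic control, 1 in a HIF1α-KO library) and 3 of miR-337-3p (2 normoxic controls and 1 hypoxic control). Among the hairpins antisense to RTL1, miR-433-3p had 1 count in each normoxic control library and 1 in a hypoxic control library. In the same run miR-432-5p had 1 count in each of 3 libraries, of which 1 was a normoxic control, 1 HIF2α-KO and 1 HIF1α/HIF2α-KO, and miR-431-5p had 1 count in 1 hypoxic control library. Neither miR-337-3p nor miR-433-3p had a count in any knockout library, where a count of 0 allows up to 0.290 CPM in the smallest library.

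Summed, the 9 rare members had 26 counts in normoxic control cells (8 to 9 per library), 17 in hypoxic control (2 to 8), 14 in HIF1α-KO (4 to 6), 14 in HIF2α-KO (0 to 9) and 6 in HIF1α/HIF2α-KO cells (0 to 4). In CPM of the pooled group these were 0.623 (exact 95% Poisson interval 0.407 to 0.912), 0.361 (0.210 to 0.578), 0.329 (0.180 to 0.552), 0.381 (0.208 to 0.640) and 0.153 (0.0562 to 0.333) in the same order. The interval of the double knockout did not meet that of the normoxic control and overlapped those of the other 3 groups. No other pair of groups had intervals apart. The double knockout and the normoxic control differ in oxygen as well as in genotype, and these cannot be told apart here. These intervals cover counting error only and leave out the spread between libraries.

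To ask whether loss of HIF1α, HIF2α or both changed the members, the counts were compared with edgeR, in a quasi-likelihood test with TMM normalization (a scaling for library composition) and p-values adjusted by the method of Benjamini and Hochberg. Of the 1707 miRNAs, 562 passed edgeR's filter on low counts (filterByExpr), and miR-127-3p was the only member among them. Against hypoxic control cells it passed in none of the 3 knockout comparisons. In HIF1α-KO cells the estimate of log2 fold change was -0.08 (SE 0.65, 95% interval -1.48 to 1.32, adjusted p = 0.995), where 1.25% of all miRNAs tested passed at an adjusted p under 0.05. It was -0.03 (SE 0.66, -1.46 to 1.39, adjusted p = 0.996) in HIF2α-KO cells, with 0% of all miRNAs passing, and -0.20 (SE 0.66, -1.62 to 1.21, adjusted p = 0.891) in HIF1α/HIF2α-KO cells, with 5.87% passing. The intervals of these edgeR values reach beyond a 2-fold change in both directions, so changes of that size were not detectable for miR-127-3p.

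Among the knockouts miR-127-3p did not pass either. It differed by a log2 fold change of 0.05 (SE 0.67, edgeR adjusted p = 0.972) between HIF2α-KO and HIF1α-KO cells, where 1.07% of all miRNAs passed. Adding the loss of HIF2α to HIF1α-KO gave -0.12 (SE 0.66, edgeR adjusted p = 0.939, 1.42% of all miRNAs passing), and adding the loss of HIF1α to HIF2α-KO gave -0.17 (SE 0.68, edgeR adjusted p = 0.919, 1.78% passing). The interaction, which asks whether HIF1α loss acts differently with and without HIF2α, was -0.09 (SE 0.94, edgeR adjusted p = 0.966, 0% passing).

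Between hypoxic and normoxic control cells miR-127-3p had a log2 fold change of -0.34 (SE 0.64, 95% interval -1.71 to 1.03, edgeR adjusted p = 0.866), and 0% of all miRNAs passed. This value depended on single libraries. Without hypoxic control replicate 1 it was -1.45, with an unadjusted p of 0.0314 and an adjusted p of 0.382 in edgeR. It was 0.019 without hypoxic control replicate 2, 0.034 without replicate 3 and -0.0055 without normoxic control replicate 3. The direction of the knockout comparisons turned too. Without hypoxic control replicate 1 the log2 fold changes against hypoxic control became 1.04 in HIF1α-KO, 1.07 in HIF2α-KO and 0.91 in HIF1α/HIF2α-KO cells, with adjusted p = 0.563, 0.372 and 0.420 in edgeR. The estimate was 0.33 in HIF1α-KO cells without their replicate 2, and 0.30 and 0.13 in HIF2α-KO cells without their replicates 2 and 3. miR-127-3p, the only member tested, also passed in 0 of the 8 comparisons with DESeq2 and with limma. Of the 562 miRNAs tested, DESeq2 called 0 to 60 in a comparison and limma 0 to 38. The unadjusted p of miR-127-3p in edgeR ran from 0.605 to 0.963, whereas an unadjusted p under 0.05 was reached by 11.9% of all miRNAs tested in HIF1α-KO, by 15.3% in HIF2α-KO and by 24.4% in HIF1α/HIF2α-KO against hypoxic control. It was reached by 17.4% for HIF2α-KO against HIF1α-KO, by 14.9% and 19.9% for the double knockout against HIF1α-KO and HIF2α-KO, by 6.23% for hypoxia and by 10.5% in the interaction. As a reference from the same edgeR fit, miR-210-3p, the miRNA best known for its rise in hypoxia, had log2 fold changes against hypoxic control of -1.76 (HIF1α-KO, adjusted p = 0.0126) and -2.21 (HIF1α/HIF2α-KO, adjusted p = 0.00402). It did not pass in HIF2α-KO cells (0.57, edgeR adjusted p = 0.400) or between hypoxic and normoxic control cells (-0.19, edgeR adjusted p = 0.841), so that no rise of miR-210-3p in hypoxia was detected in these libraries.

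**Figure D3:**
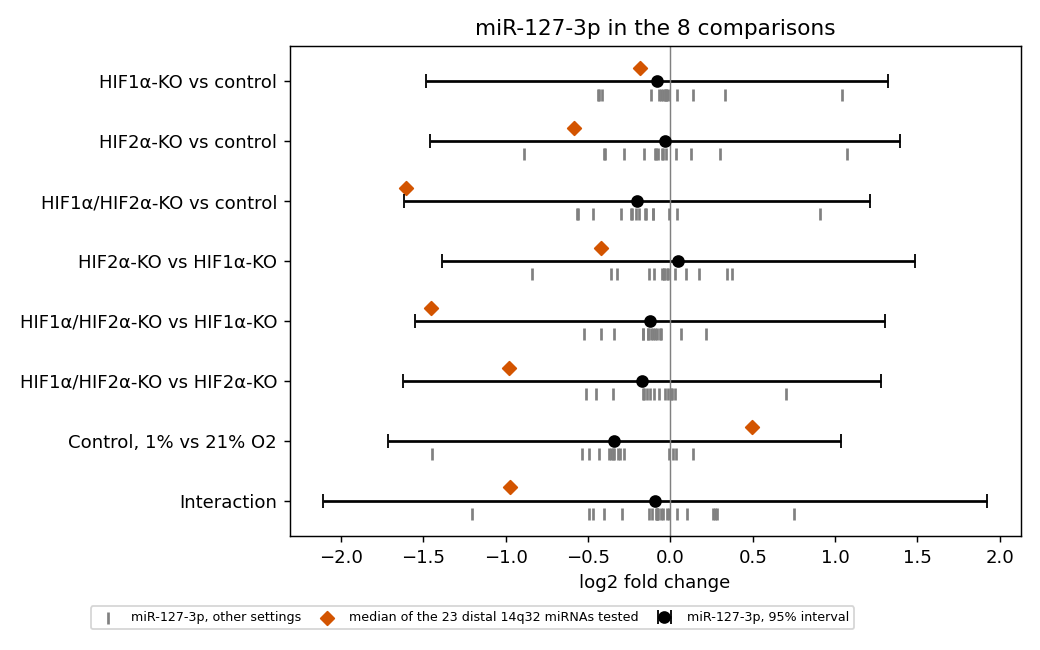
Log2 fold change (x axis) of miR-127-3p in the 8 comparisons (y axis), with black points and whiskers for the edgeR estimate and its 95% interval, grey ticks for the estimates under other settings and orange diamonds for the median of the 23 distal 14q32 miRNAs tested. All 8 intervals of miR-127-3p include 0, and the median of the distal miRNAs in HIF1α/HIF2α-KO against control is -1.60 beside -0.20 for miR-127-3p.

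When every listed miRNA was tested without the filter on low counts, all 10 members entered. At an adjusted p under 0.05, 0 members passed in any of the 8 edgeR comparisons, beside 5 to 44 of all 1707 miRNAs. With so few passing, 0 of 10 says little about the members. Against hypoxic control, and for hypoxia against normoxia, 0 members had an unadjusted p under 0.05 in edgeR, beside 4.98% of all miRNAs in HIF1α-KO, 6.21% in HIF2α-KO, 10.8% in the double knockout and 6.56% for hypoxia. For HIF2α-KO against HIF1α-KO 1 of the 10 had one, miR-127-5p (edgeR adjusted p = 0.587), beside 8.32% of all miRNAs. For HIF1α/HIF2α-KO it was miR-136-3p, against HIF1α-KO (edgeR adjusted p = 0.555, 7.09% of all miRNAs), against HIF2α-KO (adjusted p = 0.368, 9.61%) and in the interaction (adjusted p = 0.622, 6.33%). A share of 1 in 10 members is close to these backgrounds. These tests rest on 0 to 5 counts per library, and the 5 counts behind the HIF2α-KO value came from a single library.

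The distal 14q32 list, 63 mature miRNAs from miR-370 to miR-656, held far more counts in all than the upstream run. The members held 449 of the 22151 counts of both groups, or 2.03% (exact 95% binomial interval 1.85 to 2.22). This share compares lists of unlike length, 10 and 63 miRNAs, and miR-381-3p alone held 8224 of the distal counts. miR-370-3p lay 42.1 kb from the start of MIR493 with a mean level of 0.218 CPM, and the main distal run began with miR-379-5p at 153 kb and 9.33 CPM. miR-381-3p was the highest of the region at 37.2 CPM, and 7 distal miRNAs exceeded miR-127-3p at 1.89 CPM. Rare products occurred in both groups, since 25 of the 63 distal miRNAs and 9 of the 10 members never exceeded 5 counts.

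The values of the distal miRNAs are set beside those of miR-127-3p. The summed distal level was 103 ± 30.5 CPM in normoxic control, 138 ± 37.5 in hypoxic control, 133.2 ± 21.1 in HIF1α-KO, 72.4 ± 5.85 in HIF2α-KO and 50.6 ± 8.38 in HIF1α/HIF2α-KO cells (mean ± SD, n = 3 each). In HIF1α/HIF2α-KO against hypoxic control, 11 of the 23 distal miRNAs tested fell and 0 rose in edgeR, with a median log2 fold change of -1.60, beside -0.02 over all miRNAs tested, of which 4.63% fell. Against HIF1α-KO cells 7 of the 23 fell, with a median of -1.45 beside 0.02 over all miRNAs, of which 1.42% fell. In the other 6 comparisons 0 of the 23 passed in edgeR, with medians of -0.18 in HIF1α-KO and -0.59 in HIF2α-KO against hypoxic control, -0.42 for HIF2α-KO against HIF1α-KO, -0.98 for the double knockout against HIF2α-KO, 0.50 for hypoxia and -0.97 in the interaction. These comparisons share libraries with each other. In the double knockout miR-127-3p had -0.20 against hypoxic control and -0.12 against HIF1α-KO cells, and its 95% intervals reached -1.62 and -1.55, so that the distal medians lay just inside them.

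The difference between miR-127-3p and the distal list was tested directly as the ratio of their counts within a library, a test added after the values had been seen. miR-127-3p amounted to 3.50, 2.39 and 4.15 per 100 distal counts in HIF1α/HIF2α-KO libraries and to 3.28, 0.548 and 0.683 in hypoxic control libraries. These groups overlapped through hypoxic control replicate 1, and the mean log2 ratio was 1.61 higher in the double knockout (exact two-sided permutation p = 0.2, adjusted p = 0.667 over 4 comparisons). The ratio was 1.67, 0.523 and 2.37 in HIF1α-KO (exact permutation p = 1), 4.32, 1.04 and 1.41 in HIF2α-KO (exact permutation p = 0.5) and 2.33, 1.62 and 2.77 in normoxic control libraries (exact permutation p = 0.4 against hypoxic control). With 3 libraries against 3 the smallest p that this test can give is 0.1.

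The variation of miR-127-3p across the 15 libraries was set beside that of each other miRNA tested. The likeness was measured by Pearson's r of TMM-normalized log2 CPM with the other 561 miRNAs tested. The 5 highest were miR-200a-3p (r = 0.83), miR-141-3p (0.81), miR-126-3p (0.80), miR-126-5p (0.79) and miR-148a-3p (0.78). The miR-200 family, which includes miR-141, is typical of epithelial cells and miR-126 of endothelial cells. The 20 highest held 0 of the 23 distal miRNAs tested. As these were only 23 of the 561 miRNAs ranked, few or none would be among 20 taken at random, so the 0 says little. Their r ran from -0.20 to 0.29 with a median of -0.08, beside a median of 0.01 over all miRNAs. Over all 63 distal miRNAs, most of them too rare to be tested, r of log2(CPM + 0.1) ran from -0.46 to 0.69 with a median of 0.03. For comparison, miR-210-3p had r = 0.14. These values are a description over libraries that share groups and depth.

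U87-MG is a glioblastoma line, and the markers of other cell types were therefore set beside miR-127-3p. Markers of glioblastoma cells, miR-21-5p, miR-10b-5p, miR-221-3p and miR-222-3p, summed to 203757 to 287992 CPM. The summed miR-126 strands fell into 2 sets of libraries, 9 libraries at 14.5 to 51.9 CPM and 6 libraries at 3.90 to 6.95 CPM. The 6 with less miR-126 were hypoxic control replicates 2 and 3, HIF1α-KO replicates 1 and 2, HIF2α-KO replicate 2 and HIF1α/HIF2α-KO replicate 3, and none was normoxic. Cell number and RNA content per cell cannot be told apart in such bulk libraries.

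miR-127-3p ran from 1.11 to 4.24 CPM (median 2.07) in the 9 libraries with more miR-126 and from 0.694 to 2.32 CPM (median 0.901) in the 6 with less. The 9 rare members summed to 0.165 to 0.753 CPM in the former and to 0 to 0.346 CPM in the latter. Within groups miR-127-3p was 4.24 CPM in the hypoxic control library with more miR-126 against 0.717 and 0.978 in those with less, and 2.80 against 0.823 and 2.08 in HIF1α-KO libraries. In HIF2α-KO libraries it was 1.11 and 3.12 against 0.694, but in HIF1α/HIF2α-KO libraries the order was the opposite, with 1.32 and 1.43 against 2.32. Inside the set of 9 libraries, r was 0.91 with miR-200a-3p, 0.88 with miR-141-3p, 0.92 with miR-126-3p, 0.72 with miR-126-5p and 0.93 with miR-148a-3p. Inside the set of 6 it was 0.68, 0.63, 0.87, 0.60 and 0.51 in the same order. The 5 miRNAs had been chosen for their high r over the same 15 libraries, and the sets were split on miR-126, which is among them. High values of r inside the sets are therefore partly fixed by that choice and are no separate support.

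The summed blood markers separated the same sets, and the other lists overlapped between them. The 5 epithelial markers summed to 53.6 to 118 CPM in the libraries with more miR-126 and to 39.3 to 62.0 CPM in those with less, with medians of 88.6 and 48.3. The 5 blood markers summed to 8.64 to 23.3 and 4.41 to 5.66 CPM, and the 3 stromal markers to 243 to 550 (median 393) and 130 to 255 CPM (median 189). The 3 muscle markers had the higher median in the libraries with less miR-126, with 1.60 to 35.6 (median 7.13) and 17.0 to 47.2 CPM (median 31.4), and the 3 neuronal markers had 3598 to 9552 and 5882 to 10161 CPM. Among the neuronal values, 6 were at 0 in the 9 libraries with more miR-126 and 4 in the 6 with less. The neuronal sum thus came from only part of its list in some libraries. Values at 0 also occurred in the endothelial, blood and muscle lists. These lists hold only markers that are rows of the count files and have counts, so none could be at 0 in all libraries. miR-214-3p, planned as a further stromal marker, is not among the 3 counted. The 20 miRNAs most like miR-127-3p held both endothelial, 4 of the 5 epithelial, 2 of the 5 blood and 2 of the 3 stromal markers, and 0 of the muscle, neuronal and glioblastoma markers. With the sets as a covariate in edgeR the log2 fold change of miR-127-3p was 0.14 for hypoxic against normoxic control cells (adjusted p = 0.998) and -0.30 in HIF1α/HIF2α-KO against hypoxic control cells (adjusted p = 0.778). The part of other cells or RNA in the level of miR-127-3p was not tested.

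**Figure D4:**
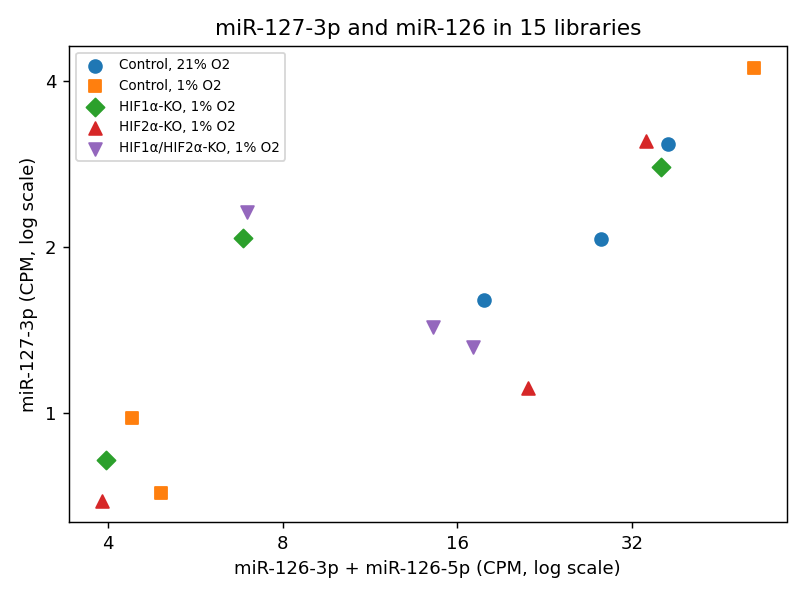
miR-127-3p (y axis, CPM, log scale) against the summed miR-126-3p and miR-126-5p (x axis, CPM, log scale) in the 15 libraries, with a symbol for each group. The libraries lie in 2 sets on the x axis, at 3.90 to 6.95 and at 14.5 to 51.9 CPM, and hypoxic control replicate 1 is the highest on both axes.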

How the data were processed

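The values deposited by the authors are unnormalized whole-number counts of reads per mature miRNA, 1 file a library. The submitters' processing notes name HISAT2, StringTie and DESeq2, without a role, and the supplementary methods name quantile normalization with limma, which the deposited counts do not include. The counting tool and the genome build are not given in the sources used here. Libraries were grouped by genotype, oxygen and replicate number in their labels. Total counts were 10360337 to 22496373, and 95% intervals of shares and pooled levels are exact. Every pair of replicates differed beyond sampling noise (chi-square per degree of freedom of at least 25.7).

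The main test was edgeR 4.0.16 (R 4.3.3). TMM factors, filterByExpr (562 of 1707 miRNAs, holding 99.988% or more of every library) and 1 quasi-likelihood fit of all 15 libraries with a mean per group were used, with Benjamini-Hochberg adjustment and a threshold of 0.05. Alternatives were the size factors of DESeq2, total counts, limma 3.58.1 on quantile-normalized log2(CPM + 1), DESeq2 1.42.0, no filter, a mean of at least 10 counts, fits of the compared groups only, the replicate number as a block, the miR-126 sets (split at the widest gap) as a covariate, and leaving out each library. In simulated data for HIF1α/HIF2α-KO against hypoxic control, with 197 of 562 miRNAs changed by a log2 fold change of 2, edgeR recovered 92.4% with 1.62% false calls, DESeq2 92.9% with 2.14% and limma 86.8% with 2.29%. The changed miRNAs were drawn from all levels that passed the filter, and the simulated libraries held no miR-126 sets. These shares therefore do not give the power for miR-127-3p, which had 8 to 50 counts per library. Ratios were tested with exact permutation tests in SciPy 1.17.1.

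All 10 members were named, with miR-210-3p, the 5 miRNAs most like the members that passed the filter, and members of the distal and marker lists. The members and lists were chosen with earlier results of these data known. Hairpins were placed with the GENCODE annotation of GRCh38, and sequences are from RefSeq.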

Additional observations from a re-analysis of the deposited data

How the results depend on the processing

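In every alternative run 0 members passed, as in the reported comparisons, beside 0 to 61 of the 504 to 1707 miRNAs tested. The main filter kept miR-127-3p alone of the members, whereas all 10 entered without a filter. The estimate for miR-127-3p passed an adjusted p of 0.05 in 0 of its alternatives, with adjusted p from 0.372 to 1, and 1 had an unadjusted p under 0.05 (hypoxic against normoxic control without hypoxic control replicate 1, given above). Its direction was not stable, and the cause was not tested. For HIF1α-KO against control it turned to 0.14 with limma and 0.042 with the miR-126 covariate. For HIF2α-KO and HIF1α/HIF2α-KO against control it turned to 0.037 and 0.042 with limma. For HIF2α-KO against HIF1α-KO it turned to -0.13 with total counts, -0.10 with limma, -0.021 with DESeq2, -0.041 without a filter, -0.040 with a mean of at least 10 counts, -0.33 with the miR-126 covariate and -0.014 with only the compared groups. For HIF1α/HIF2α-KO against HIF2α-KO it turned to 0.0087 with total counts and 0.0053 with limma, for hypoxia to 0.14 with the miR-126 covariate, and for the interaction to 0.042 with total counts. Total counts also moved the median of all miRNAs, to -0.15 in HIF2α-KO against control, -0.13 against HIF1α-KO, 0.16 in HIF1α/HIF2α-KO against HIF2α-KO and 0.18 in the interaction. Leaving out 1 library gave -0.44 to 1.04 for HIF1α-KO, -0.89 to 1.07 for HIF2α-KO and -0.56 to 0.91 for HIF1α/HIF2α-KO against control, with each upper end from hypoxic control replicate 1. It gave -0.84 to 0.37 for HIF2α-KO against HIF1α-KO, -0.52 to 0.22 for HIF1α/HIF2α-KO against HIF1α-KO, -0.51 to 0.70 against HIF2α-KO, -1.45 to 0.034 for hypoxia and -1.21 to 0.75 for the interaction. The lower end of the first and the upper end of the third of these came without HIF2α-KO replicate 1.

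With the replicate number as a block 0 members passed in all 8 comparisons, and miR-127-3p had -0.049 for HIF2α-KO against HIF1α-KO. Same-numbered libraries did not deviate together in every pair (correlations from -0.62 to 0.55). The labels give them only a common number, and whether they shared a batch or culture is not given. Over all miRNAs the block gave 3 calls in place of 6 for HIF2α-KO against HIF1α-KO and 7 in place of 10 for HIF1α/HIF2α-KO against HIF2α-KO. The 9 rare members had 0 to 5 counts per library, at or near the floor of 3 counts.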
